A study of Mus musculus with 8 samples.

Results

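The genes described here run and control autophagy and the lysosome: 41 genes chosen by name, of which 39 could be read on the array, out of 22180 genes read in all. The rule takes genes by name and uses no measured value, but the genes were named with earlier results of these data known. A gene was read where a probe set is annotated to that gene alone, and where several are, by the set with the highest mean over the 8 arrays. Optn, a receptor for damaged mitochondria and bacteria, was not read, and the only probe set that names Bnip3l also names a pseudogene of it.

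The cells were conventional dendritic cells (cDC) that carry CD103 and CD11b, a type that takes up antigen in the gut wall and brings it to the draining lymph nodes. They were obtained by flow cytometry from mesenteric nodes of male C57BL6 mice aged 8 weeks and fed control chow. In 4 arrays the mice carried hBcl-2, a transgene that encodes human BCL2 and is driven by the CD11c promoter (the group labelled DChBcl-2), and in the other 4 arrays they were wild-type littermates. The CD11c promoter is active in dendritic cells and in some other myeloid cells, so the transgene is not limited to the sorted cell type. Each array measured RNA pooled from 2 to 3 samples, n = 4 arrays per group, and the labels do not say which animals are in which pool, so p-values measure only the spread between these pools.

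Autophagy encloses cytoplasm, damaged organelles or microbes in a double membrane that fuses with the lysosome. The ULK1 kinase complex starts it, the lipid kinase VPS34 with Beclin 1 marks the membrane, ATG9 and ATG2 supply lipid, and a pair of ubiquitin-like conjugation systems attach LC3 and GABARAP proteins to it. BCL2 is known to bind Beclin 1 and to restrain its part in autophagy. That is an interaction between proteins, which these RNA levels do not measure. In dendritic cells the same machinery delivers antigen to the compartments where MHC class II is loaded.

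All values are log2 levels, and differences are transgenic minus wild type on the log2 scale. A gene is said to have risen or fallen only where limma's test, with Benjamini-Hochberg adjustment over all 22180 genes, gave an adjusted p below 0.05. The median level over probe sets was 5.04 to 5.15 on the 8 arrays. Transgenic array 4 was the least like its group: its correlation with the other transgenic arrays averaged 0.974, where those 3 had 0.980 to 0.983 and wild-type arrays 0.986 to 0.988. The cDC genes Flt3, Zbtb46, H2-Ab1 and Ccr7 were well above the median gene (5.32) in both groups, while the genes of the sorting markers were not: Itgae (CD103) had means of 5.66 and 5.40 and Itgam (CD11b) of 5.57 and 5.58 in wild-type and transgenic arrays. Of 9 cDC markers 0 passed, with 4 positive and 5 negative. At an unadjusted p below 0.05 in limma, 3 (33.3%) were lower in transgenic arrays and 0 were higher. That share was 13.2% of all genes and 21.4% of genes at or above the median gene, in either direction. The 3 were Flt3 (-0.37, SE 0.16) and H2-Ab1 (-0.25, SE 0.11), whose groups did not overlap, and Zbtb46 (-0.42, SE 0.16). Groups that did not overlap were thus found for 2 of the 9 markers (22.2%). That share was 8.94% of all genes and 14.3% of genes at or above the median gene. The part of these cDC markers in the results below was not tested. The mean of 8 monocyte and macrophage markers was 5.79 to 6.12 in wild-type and 6.22 to 7.08 in transgenic arrays, and its part in the results below was not tested. Of those 8 markers, Adgre1 (1.29, SE 0.19) and Csf1r (1.16, SE 0.19) rose. Ly6c2 had the largest difference without passing (1.81, SE 0.77, with transgenic array 2 at 10.38), and Cd14 (0.74, SE 0.26) did not pass. Lyz2, the brightest of them (means of 10.8 in wild-type and 10.7 in transgenic arrays), was at -0.08 (SE 0.26) and did not pass. Mertk, Fcgr1 and C5ar1 lay below the median gene in both groups. The call of Csf1r was lost without wild-type array 1, 2 or 3, without variance moderation and with the replicate number as a block (limma adjusted p up to 0.131), and that of Adgre1 only without moderation (0.108). The mean of 6 plasmacytoid dendritic cell markers was 6.32 to 7.18 in wild-type and 6.66 to 8.16 in transgenic arrays, with array 2 the highest, and its part was not tested either. Of these, 5 were positive and Bst2 rose (0.76, SE 0.13, limma adjusted p = 0.0204, and up to 0.0943 over the alternatives). The call of Bst2 was lost without wild-type array 1, 2 or 3 or transgenic array 2 or 3. It was also lost without variance moderation and with the replicate number as a block.

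Most of these genes did not pass the test, and the median size of their differences, in either direction, was 0.19, against 0.13 over all genes and 0.18 over genes at or above the median gene. Tfe3, a transcription factor of lysosome and autophagy genes, and Atg5, part of the enzyme that attaches LC3 to membranes, fell in transgenic cDC. Gabarapl1, one of the LC3-like proteins, was higher on every transgenic array, and so were Lamp1, a major protein of the lysosomal membrane, and Wipi2, but none of these 3 passed. Of the 39 genes read, 0 rose, 2 fell and 37 did not pass, against 1.69% of all genes that passed (0.839% rose and 0.848% fell). Among the 11090 genes at or above the median gene, where most of the 39 lie, 168 rose and 183 fell. Without transgenic array 4, 1 rose (Atg2b) and 1 fell (Tfe3), against 1.71% of all genes. As the cells were measured in bulk, fewer cells of a type and less RNA per cell cannot be told apart.

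The groups did not overlap for 7 members, 3 higher and 4 lower in transgenic arrays, which is 17.9% of those read against 8.94% of all genes (4% higher and 4.94% lower) and 14.3% of genes at or above the median gene, where 37 of the 39 lie. At an unadjusted p below 0.05 in limma there were 11 members, 6 higher and 5 lower, or 28.2% against 13.2% of all genes and 21.4% of those at or above the median gene. The members' median difference was -0.07, with 16 positive and 23 negative, and that of all genes was -0.0016. For 21 of the 37 members that did not pass, the whole 95% interval lay inside a 1.5-fold change in either direction, and for the other 16 it did not.

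**Figure D1:**
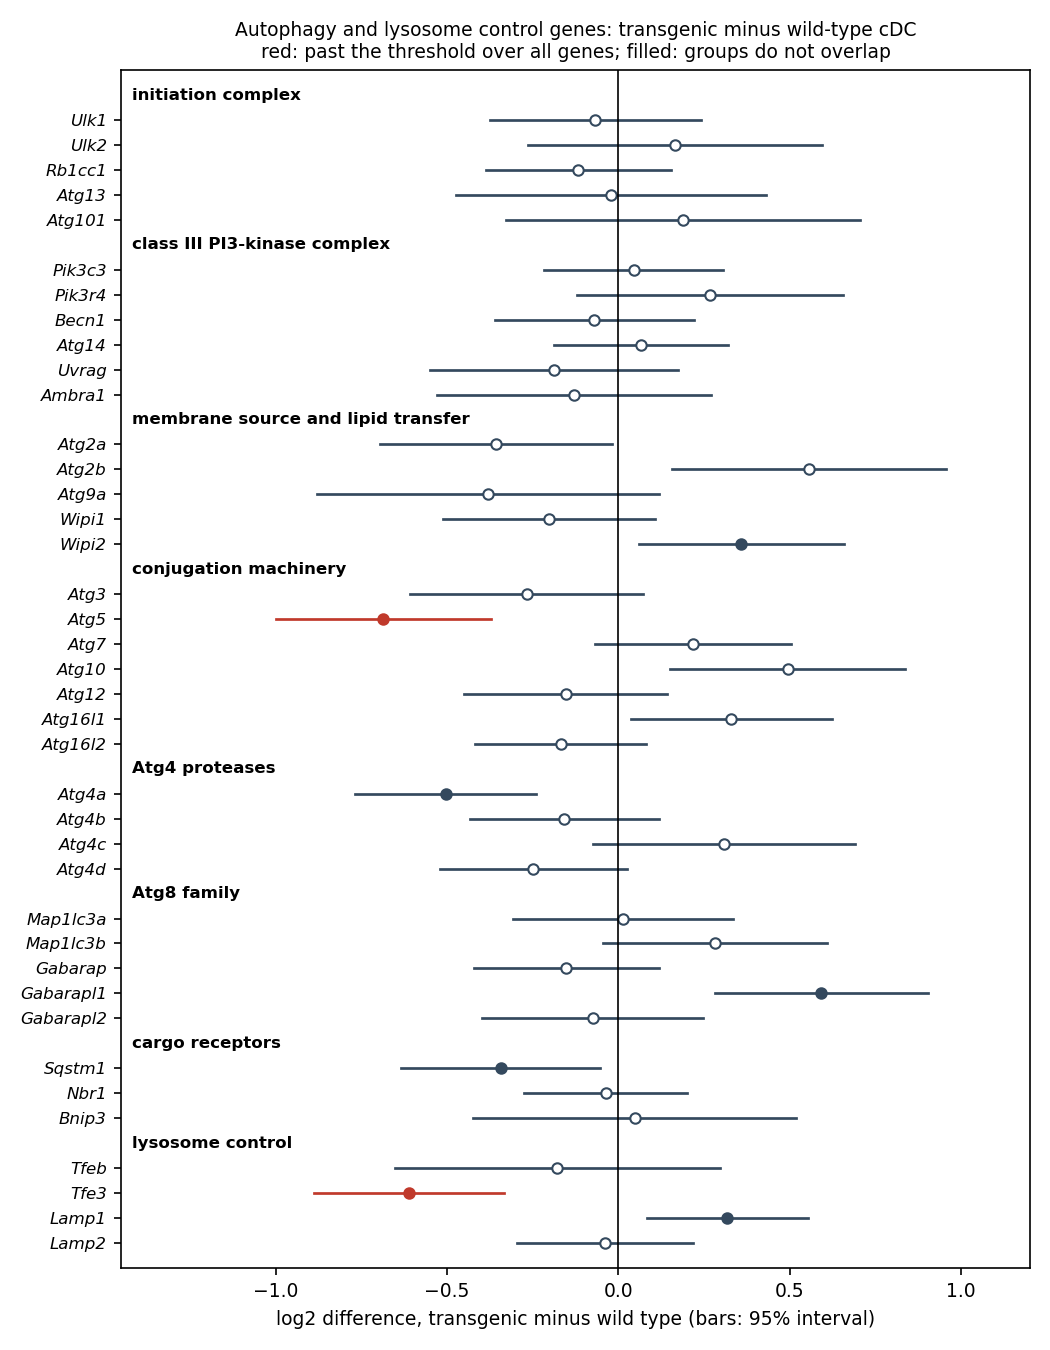
Log2 difference (transgenic minus wild type) of the 39 members read, with its 95% interval from limma as a bar, ordered by role. Red marks Atg5 and Tfe3, the 2 that fell; filled points mark the 7 members whose groups do not overlap.

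TFEB and TFE3 are related transcription factors that enter the nucleus when nutrients are short or lysosomes are stressed and turn on lysosomal and autophagy genes. Tfe3 was at 8.09, 8.16, 8.10 and 8.17 on wild-type arrays 1 to 4 and at 7.69, 7.60, 7.61 and 7.19 on transgenic arrays 1 to 4. Every transgenic array lay below every wild-type array, and array 4 was the lowest. Tfe3 fell by 0.61 (SE 0.13; 1.53-fold lower, limma adjusted p = 0.0423), from 8.13 ± 0.04 to 7.52 ± 0.22 (SD, n = 4). It still passed without transgenic array 4 (-0.50, SE 0.09, limma adjusted p = 0.0371). Without any other single array it did not pass, and over all alternatives limma's adjusted p was 0.0226 to 0.122 and the difference -0.67 to -0.50. Tfeb was at 6.18 to 6.66 in wild-type and 5.74 to 6.77 in transgenic arrays, with overlapping groups and a difference of -0.18 (SE 0.21), and did not pass.

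LAMP1 and LAMP2 are the heavily glycosylated proteins that line the lysosomal membrane. Lamp1 was at 12.26, 12.25, 12.26 and 12.29 on the wild-type arrays and at 12.65, 12.66, 12.65 and 12.37 on the transgenic ones. The wild-type arrays were almost level, and all 4 transgenic arrays lay above them, array 4 by least. The difference was 0.32 (SE 0.11, 95% interval 0.08 to 0.55, limma adjusted p = 0.196) and did not pass, nor did it without array 4 (0.39, SE 0.09, limma adjusted p = 0.0745). Lamp2 was at 9.50 ± 0.15 and 9.46 ± 0.11 (SD, n = 4), a difference of -0.04 with a 95% interval of -0.29 to 0.22.

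TFEB and TFE3 bind a short palindrome, the E-box CACGTG, in many lysosomal and autophagy promoters. RefSeq windows from 250 bases before to 50 bases after a gene's start (GRCm38.p6) were found for 34 of the 41 members. The E-box, which reads the same on both strands, was in the window of 6 of these 34 (17.6%: Atg3, Atg5, Atg7, Atg14, Bnip3 and Lamp1) against 8.09% of 27025 genes. Its longer form TCACGTGA, which contains the E-box, was in 1 of the 34 (Atg3) against 1.12% of genes. The 250 bases before the start are shown for Atg5, the member that fell and has the motif, and for Lamp1 and Atg3, the members that have it more than once, on the strand of the gene with the E-boxes in capitals.
Lamp1, chr8:13158911-13159160, + strand: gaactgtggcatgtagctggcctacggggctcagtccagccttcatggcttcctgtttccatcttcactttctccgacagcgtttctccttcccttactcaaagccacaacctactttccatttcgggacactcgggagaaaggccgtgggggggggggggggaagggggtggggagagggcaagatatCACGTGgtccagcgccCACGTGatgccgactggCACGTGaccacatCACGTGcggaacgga
Atg5, chr10:44268089-44268338, + strand: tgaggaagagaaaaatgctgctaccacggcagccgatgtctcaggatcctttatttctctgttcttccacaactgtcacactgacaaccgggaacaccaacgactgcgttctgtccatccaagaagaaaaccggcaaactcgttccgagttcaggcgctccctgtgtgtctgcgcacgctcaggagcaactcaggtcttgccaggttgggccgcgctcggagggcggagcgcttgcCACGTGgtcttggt
Atg3, chr16:45158579-45158828, + strand: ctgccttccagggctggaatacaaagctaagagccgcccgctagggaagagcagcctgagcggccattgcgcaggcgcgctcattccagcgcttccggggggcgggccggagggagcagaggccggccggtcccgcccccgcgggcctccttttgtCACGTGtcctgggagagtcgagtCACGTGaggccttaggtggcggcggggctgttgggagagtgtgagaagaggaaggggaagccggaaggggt

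Lamp1 held 4 E-boxes, which begin 61, 45, 28 and 15 bases before the start. Atg5 held 1, at 14 bases before the start, and Atg3 held 2, at 94 and 71 bases. The members with the motif did not share a direction: Atg5 fell, and Atg3 (-0.27), Atg7 (0.22), Atg14 (0.07), Bnip3 (0.05) and Lamp1 (0.32) did not pass. Neither of the 2 windows of Tfe3 holds these letters.

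The conjugation systems work like those of ubiquitin. ATG7 activates both, ATG10 passes ATG12 to ATG5, and the ATG12-ATG5 conjugate with ATG16L1 directs the transfer of LC3 from ATG3 to the membrane lipid. Atg5 was at 7.61, 7.56, 7.73 and 7.65 on the wild-type arrays and at 7.04, 6.84, 7.28 and 6.63 on the transgenic ones. All transgenic arrays lay below all wild-type arrays, with array 3 nearest to them and array 4 farthest. Atg5 fell by 0.69 (SE 0.14; 1.61-fold lower, limma adjusted p = 0.0431), from 7.63 ± 0.07 to 6.95 ± 0.28 (SD, n = 4). Among the fits without 1 array, it passed only without transgenic array 3. Without transgenic array 4 the difference was -0.58 (SE 0.12, limma adjusted p = 0.0560), and over all alternatives the adjusted p was 0.0278 to 0.152 and the difference -0.80 to -0.58.

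None of the other 6 conjugation genes passed. Atg10 was at 6.63, 6.51, 6.98 and 6.60 in wild-type and 7.03, 6.88, 7.38 and 7.40 in transgenic arrays. Only wild-type array 3 lay within the transgenic range, and the difference of 0.49 (SE 0.15, limma adjusted p = 0.164) did not pass. Atg16l1 was also higher without passing (0.33, SE 0.13, limma adjusted p = 0.306). Atg12 (-0.15), Atg7 (0.22), Atg3 (-0.27) and Atg16l2 (-0.17), a homologue of Atg16l1, did not pass either, and their groups overlapped.

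The ATG4 proteases trim LC3 and GABARAP before they are attached and cut them off again later. Atg4a, which acts mainly on the GABARAP branch, was at 8.04, 8.08, 8.11 and 8.38 on the wild-type and 7.76, 7.69, 7.67 and 7.46 on the transgenic arrays. The groups were clear of each other, and the difference of -0.50 (SE 0.12, 95% interval -0.77 to -0.24) did not pass (limma adjusted p = 0.0691). Limma's adjusted p for Atg4a was 0.0441 to 0.173 over the alternatives. Atg4b, the protease with the broadest action, was at -0.16 (SE 0.12), Atg4c at 0.31 (SE 0.17) and Atg4d at -0.25 (SE 0.12), and none of these passed.

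The LC3 and GABARAP proteins are the ubiquitin-like tags that end up on the autophagosome. Gabarapl1 was at 7.76, 7.80, 8.00 and 7.39 in wild-type and at 8.17, 8.38, 8.36 and 8.41 in transgenic arrays. Every transgenic array was higher, and wild-type array 4 was the lowest. It had the largest positive difference of the 39 genes (0.59, SE 0.14, 95% interval 0.28 to 0.90) and did not pass (limma adjusted p = 0.0698, and 0.0434 to 0.192 over the alternatives). Map1lc3b, which encodes LC3B, was at 9.86 ± 0.18 and 10.14 ± 0.25 (SD, n = 4), with overlapping groups and a difference of 0.28 (SE 0.15). Gabarap (-0.15, SE 0.12), Gabarapl2 (-0.08, SE 0.15) and Map1lc3a (0.01, SE 0.14) did not pass. The other probe set of Gabarap gave the same difference of -0.15.

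**Figure D2:**
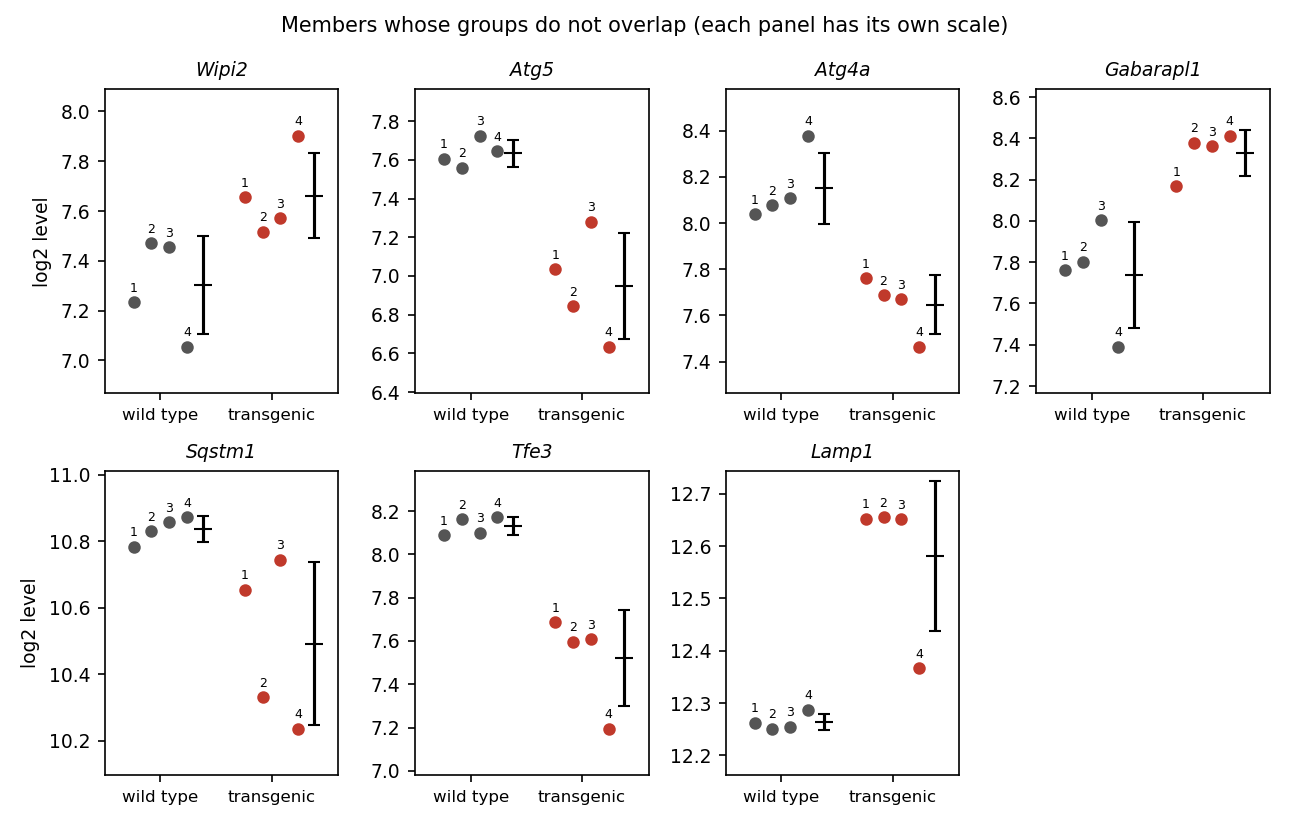
Log2 level on each array (points, numbered by array) of the 7 members whose groups do not overlap, with the mean and SD of each group beside them (n = 4). Wipi2, Gabarapl1 and Lamp1 are higher on all transgenic arrays, and Atg5, Atg4a, Sqstm1 and Tfe3 are lower on all of them.

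The complex that starts autophagy joins the kinases ULK1 and ULK2 to the scaffold FIP200 (Rb1cc1), ATG13 and ATG101. None of its 5 genes passed, and the differences ran from -0.12 (Rb1cc1) to 0.19 (Atg101). The wild-type arrays were tight for Atg13 (7.11 to 7.20) and Ulk1 (6.92 to 7.05) but not for Atg101, where wild-type array 4 was at 8.16 and the other 3 at 7.00 to 7.35. Atg13 was at 7.39, 7.33 and 7.37 on transgenic arrays 1 to 3 and at 6.41 on array 4. Ulk2 likewise was at 7.46, 7.43 and 7.50 on the first 3 and at 6.59 on array 4. For both genes, transgenic arrays 1 to 3 lay above the whole wild-type group and array 4 below it. Without array 4 the difference was 0.22 (SE 0.09) for Atg13 and 0.38 (SE 0.10) for Ulk2, and neither passed (limma adjusted p = 0.312 and 0.109).

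The VPS34 kinase complex, on which BCL2 acts through Beclin 1, showed no change that passed. Becn1 was at 7.57, 8.01, 7.68 and 7.79 in wild-type and 7.82, 7.74, 7.46 and 7.75 in transgenic arrays. The groups overlapped in part, with wild-type array 2 above and transgenic array 3 below all arrays of the other group, and the difference was -0.07 (SE 0.13, 95% interval -0.36 to 0.22). Pik3c3, the kinase itself, was at 0.04 (95% interval -0.22 to 0.31), and Atg14, the subunit that directs it to autophagosomes, at 0.07 (95% interval -0.19 to 0.32). Pik3r4 (0.27), Uvrag (-0.19), which directs the kinase to endosomes, and Ambra1 (-0.13) did not pass. For 5 of the 6 genes the 95% interval lay inside 1.5-fold in either direction, the exception being Pik3r4, which was at 7.91 on transgenic array 2 and 7.20 to 7.30 on the other 3.

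The genes that feed membrane to the growing autophagosome spread in both directions, and none of the 5 passed. ATG2A and ATG2B are lipid transfer proteins that can stand in for each other, and their genes had opposite signs. Atg2b was at 5.57, 5.74, 5.84 and 5.78 in wild-type arrays and at 6.47, 6.37, 6.59 and 5.72 in transgenic arrays, so that arrays 1 to 3 lay above the wild-type group and array 4 within it. The difference was 0.56 (SE 0.18, limma adjusted p = 0.180), and 0.75 (SE 0.11) without transgenic array 4, where it passed (limma adjusted p = 0.0186). Its wild-type level of 5.73 is little above the median gene, so the size of this difference is uncertain. Atg2a was at -0.36 (SE 0.15, limma adjusted p = 0.345), with only transgenic array 3 inside the wild-type range, at 7.77.

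ATG9A is the membrane protein of the vesicles that seed the autophagosome, and WIPI1 and WIPI2 bind the lipid that VPS34 makes. Wipi2 was at 7.23, 7.47, 7.46 and 7.05 in wild-type and 7.66, 7.52, 7.57 and 7.90 in transgenic arrays. The groups did not overlap, by a margin of less than their own spread, and the difference of 0.36 (SE 0.13, limma adjusted p = 0.261) did not pass. Atg9a was at -0.38 (SE 0.22), where transgenic array 4 was at 6.07 and the other 3 at 6.86 to 7.20. Without that array the difference was -0.15 (SE 0.15). Wipi1 was dim, with means of 5.29 and 5.09.

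Cargo receptors hold what is to be degraded and bind LC3. Sqstm1, which encodes p62, was at 10.78, 10.83, 10.86 and 10.87 in wild-type and 10.66, 10.33, 10.74 and 10.24 in transgenic arrays. The wild-type arrays were close together, and all transgenic arrays lay below them, arrays 2 and 4 by most. The difference of -0.34 (SE 0.13, 95% interval -0.63 to -0.05) did not pass (limma adjusted p = 0.271). Nbr1, a relative of p62, was at 8.01 ± 0.07 and 7.97 ± 0.13 (SD, n = 4). Bnip3, a receptor that removes mitochondria and is induced by low oxygen, was dim (5.20 and 5.25) and overlapped. The probe set shared by Bnip3l and its pseudogene was at 9.50, 9.61, 9.67 and 9.33 in wild-type and 9.93, 9.85, 9.91 and 10.14 in transgenic arrays, all higher, and cannot be assigned to either.

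Transgenic array 4 often had the lowest value of its group. It was the lowest transgenic array for 23 of 39 members (59.0%) and the lowest of all 8 arrays for 15 (38.5%), against 28.4% and 18.4% of all genes and 43.0% and 29.4% of genes at or above the median gene. Its values are spread less widely than those of the others (SD over probe sets 2.00 against 2.07 to 2.11), and what part this has in the members' levels was not tested. Without it the members' median difference was 0.0027. Within wild-type arrays the members' SD was 0.02 (Lamp1) to 0.51 (Atg101), with a median of 0.16, and within transgenic arrays 0.06 (Atg4d) to 0.49 (Atg9a), with a median of 0.21. The transgenic SD was the larger for 24 of 39 members (61.5%), close to the 62.1% of all genes.

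**Figure D3:**
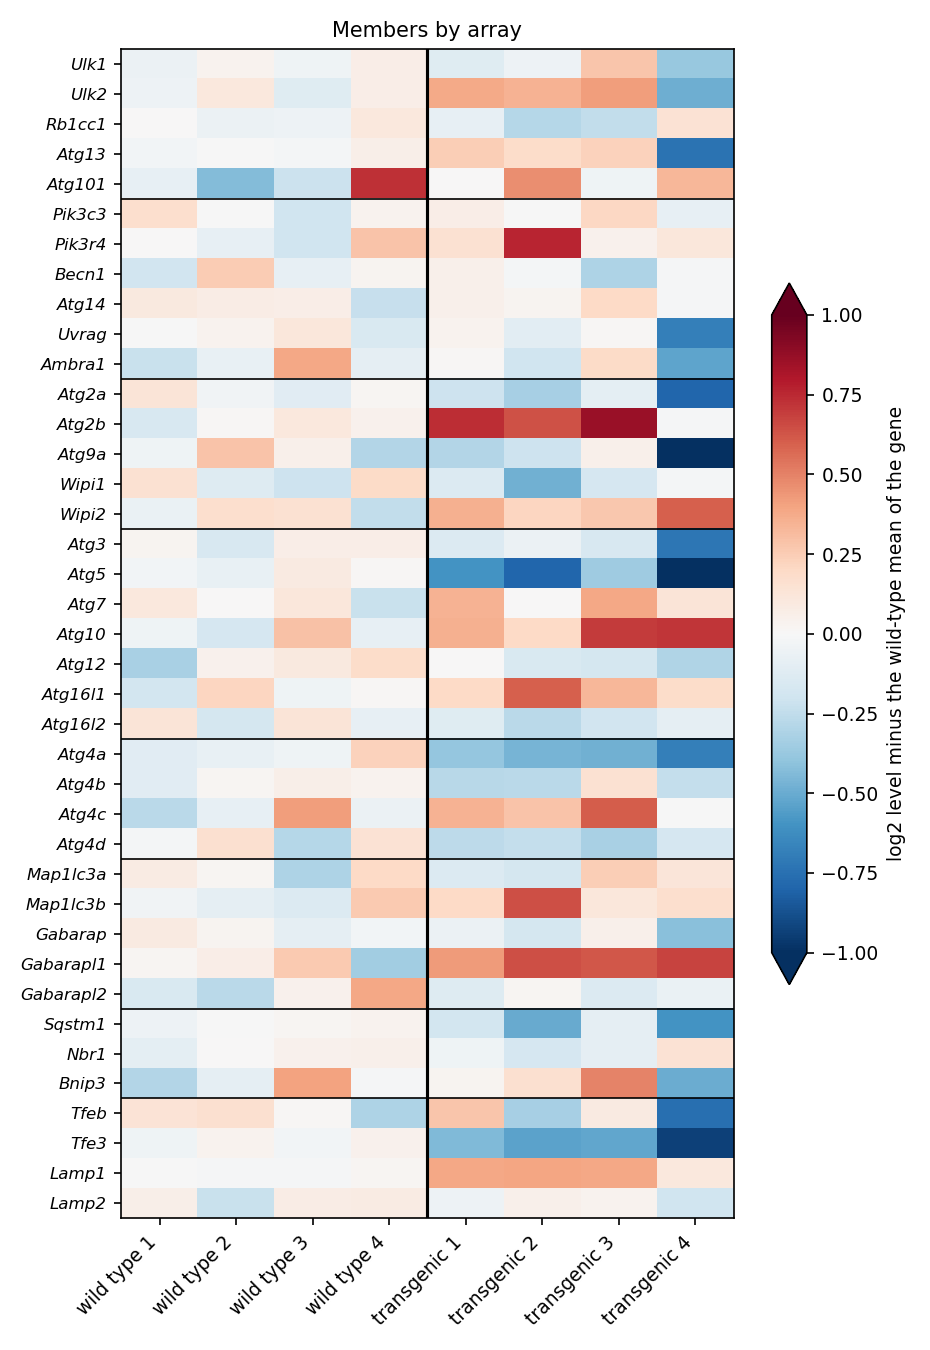
Each member's log2 level on each array minus its wild-type mean, as colour from -1 (blue) to 1 (red), with lines between roles and between genotypes. Transgenic array 4 is blue for many members, such as Atg13 (6.41) and Ulk2 (6.59), where the other transgenic arrays are not. For Atg9a it is the lowest (6.07), and transgenic arrays 1 (6.86) and 2 (6.94) also lie below the wild-type mean (7.15).

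Genes that work with the members were read from 9 further lists. Of 27 lysosomal enzymes and membrane proteins read (32 listed), 2 rose, 0 fell and 25 did not pass, with 18 positive and a median difference of 0.14. Of all 22180 genes, 0.839% rose, 0.848% fell and 11020 were positive. Of the 11090 genes at or above the median gene, 168 rose, 183 fell and 5467 were positive. Ctsa, cathepsin A, was at 9.26, 9.44, 9.32 and 9.30 in wild-type and 9.86, 9.88, 9.94 and 9.76 in transgenic arrays. The groups were far apart compared with their spread, and Ctsa rose by 0.53 (SE 0.10, limma adjusted p = 0.0303). Sgsh, which breaks down heparan sulphate, rose by 0.62 (SE 0.13, limma adjusted p = 0.0492) from a dim wild-type level of 5.52, so the size is uncertain. Leaving out any single array other than transgenic array 4 ended both calls, and limma's adjusted p over the alternatives was 0.0151 to 0.1004 for Ctsa and 0.0299 to 0.149 for Sgsh. Psap, whose product helps lysosomal enzymes degrade sphingolipids, was at 0.52 (SE 0.13) and Gusb, the lysosomal glucuronidase, at 0.46 (SE 0.13), with groups that did not overlap, and did not pass (limma adjusted p = 0.0888 and 0.117). The lowest were Gaa, the glucosidase of glycogen (-0.31, SE 0.10), and Ctsb, cathepsin B (-0.29, SE 0.15), and neither passed. Gaa was lower on every transgenic array than on any wild-type array. In this list the groups did not overlap for 6 of 27 genes (22.2%), 5 higher and 1 lower. That share was 8.94% of all genes and 14.3% of genes at or above the median gene. The mean of the 8 monocyte and macrophage markers was higher on all transgenic arrays too, and its part here was not tested. Of the 8, 2 rose, 6 were positive and 2 negative.

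The kinase mTORC1 holds TFEB and TFE3 in the cytoplasm and restrains the ULK1 complex when nutrients are plentiful. Of 28 genes of mTORC1 and nutrient sensing, 1 fell, against 0.848% of all genes, and 27 did not pass, with a median of 0.02. Akt1s1, which encodes the mTORC1 inhibitor PRAS40, was at 7.74, 8.48, 7.89 and 7.70 in wild-type and 7.02, 6.42, 7.33 and 6.68 in transgenic arrays. The groups were apart although each was wide, and Akt1s1 fell by 1.09 (SE 0.22, limma adjusted p = 0.0418). Among the fits without 1 array it passed only without transgenic array 3, and limma's adjusted p over all alternatives was 0.0253 to 0.200. Sesn3 (0.38, SE 0.12) and Flcn (0.25, SE 0.11) had the highest statistics among the positive genes, and Nprl2 (-0.31, SE 0.17) had the next lowest after Akt1s1. Of the 7 genes of AMPK, the kinase that activates ULK1, and its activator LKB1, 0 passed. At an unadjusted p below 0.05 in limma there were 2 (28.6%), against 13.2% of all genes and 21.4% of those at or above the median gene. These were Stk11 (LKB1) at 0.36 (SE 0.14) and Prkab2 at -0.68 (SE 0.24).

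Of 15 further receptors for selective autophagy, 1 rose, against 0.839% of all genes, and 14 did not pass, with a median of 0.09. Ccpg1, a receptor for autophagy of the endoplasmic reticulum, was at 7.94, 7.68, 7.48 and 8.01 in wild-type and 8.81, 8.86, 8.99 and 8.76 in transgenic arrays. The transgenic arrays were close together and all higher, and Ccpg1 rose by 1.08 (SE 0.14; 2.11-fold, limma adjusted p = 0.00644). It passed without each of the 8 arrays in turn, but not without variance moderation (adjusted p = 0.0691). Ccpg1os, a transcript named for the opposite strand of Ccpg1, rose too (1.92, SE 0.35), and whether their probe sets see a shared transcript was not tested. Ncoa4, the receptor for ferritin, was at -0.49 (SE 0.13) with groups that did not overlap, and did not pass (limma adjusted p = 0.1002). In this list the groups did not overlap for 3 of 15 genes (20%), 2 higher and 1 lower. That share was 8.94% of all genes and 14.3% of genes at or above the median gene.

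Among 9 further regulators of the Beclin complex and of membrane supply, 1 fell, against 0.848% of all genes, and 8 did not pass, with a median of -0.24. Bcl2l1, whose product BCL-XL also binds Beclin 1, fell by 0.78 (SE 0.13, limma adjusted p = 0.0181). Leaving out wild-type array 2, 3 or 4, the replicate number as a block and the lack of variance moderation each ended the call of Bcl2l1, whose adjusted p in limma was 0.0123 to 0.0853 over the alternatives. Nrbf2, a subunit of the VPS34 complex with ATG14, was at 9.48, 9.13, 9.03 and 9.18 in wild-type and 8.84, 8.79, 8.74 and 8.70 in transgenic arrays. The groups did not overlap, and the difference of -0.44 (SE 0.12, limma adjusted p = 0.111) did not pass. Of the 9 genes, 2 (22.2%) had groups that did not overlap, both lower. That share was 8.94% of all genes and 14.3% of genes at or above the median gene. Bcl2, on a probe set annotated to the mouse gene, was at 0.74 (SE 0.22) and did not pass.

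For the fusion of autophagosomes with lysosomes, 0 of 14 genes passed, with a median of 0.03. At an unadjusted p below 0.05 in limma there were 4 (28.6%), against 13.2% of all genes and 21.4% of those at or above the median gene. Vamp8, a fusion protein on the lysosomal side, was at 11.29, 11.40, 11.41 and 11.49 in wild-type and 11.93, 11.70, 11.88 and 11.80 in transgenic arrays, and Vps11, of the HOPS tethering complex, at 7.60 ± 0.22 and 8.18 ± 0.18 (SD, n = 4). Neither pair of groups overlapped, and neither gene passed (limma adjusted p = 0.0732 and 0.0755). Groups that did not overlap were found for these 2 of the 14 genes (14.3%). That share was 8.94% of all genes and 14.3% of those at or above the median gene. Ykt6 was the lowest (-0.76, SE 0.28).

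LC3 is also attached to phagosomes, a step that needs the NADPH oxidase. Of 5 oxidase genes read, 0 passed, 4 were negative, and the median difference was -0.57. At an unadjusted p below 0.05 in limma there were 2 (40%), against 13.2% of all genes and 21.4% of those at or above the median gene. Ncf1 (-0.57, SE 0.15) and Ncf4 (-0.53, SE 0.13) had groups that did not overlap (limma adjusted p = 0.109 and 0.0844). These were 2 of the 5 genes (40%), where the share without overlap was 8.94% of all genes and 14.3% of those at or above the median gene. Cybb, the catalytic subunit, was at 8.63, 9.05 and 8.25 on transgenic arrays 1 to 3 and at 6.41 on array 4, against 8.83 to 9.30 in wild type. Without array 4 the median of the 5 genes was -0.41. Of 12 genes of the hypoxia-inducible factor and its targets, 1 rose and 11 did not pass, with 11 positive and a median of 0.22. Of all 22180 genes, 0.839% rose, 11020 were positive and 11160 negative. The 1 of these 12 that rose was Adm, adrenomedullin (0.66, SE 0.13, limma adjusted p = 0.0308), from a dim wild-type level of 5.13. Leaving out any single array other than transgenic array 4 ended that call, with an adjusted p in limma of 0.0235 to 0.106 over the alternatives. Of the 3 FoxO factors, 0 passed (0 at an unadjusted p below 0.05 in limma).

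**Figure D4:**
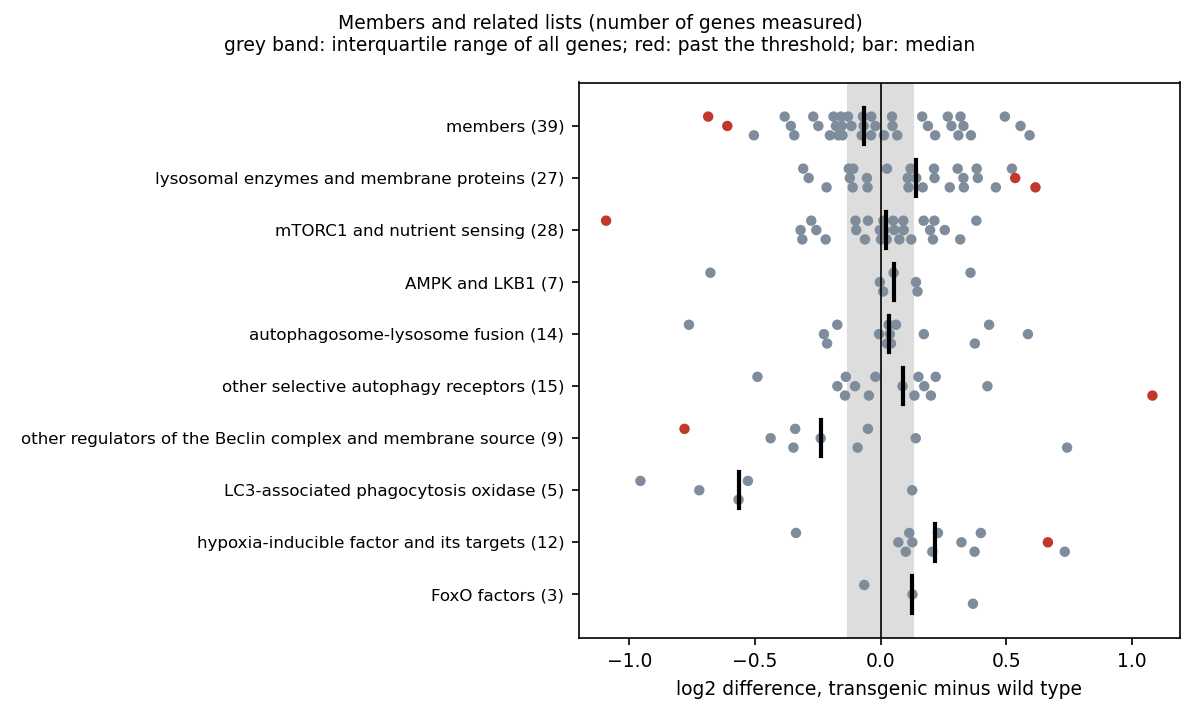
Log2 difference (transgenic minus wild type) of each gene in the members and in 9 related lists, with the list's median as a black bar and genes past the threshold in red. The grey band is the interquartile range of all genes (-0.13 to 0.13); the oxidase list has the lowest median (-0.57).

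**Figure D5:**
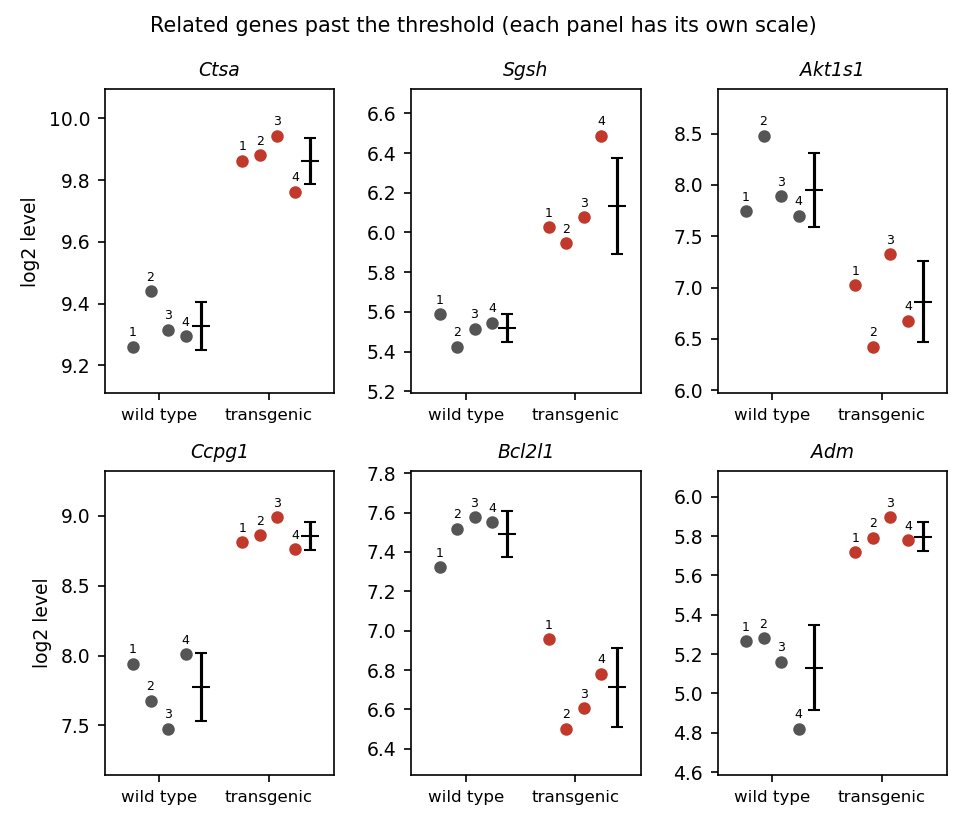
Log2 level on each array (points, numbered by array) of the 6 related genes past the threshold, with mean and SD of each group (n = 4). Ctsa, Sgsh, Ccpg1 and Adm are higher and Akt1s1 and Bcl2l1 lower on all 4 transgenic arrays.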

How the data were processed

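RNA (2.5 ng per array) from sorted cells was amplified and hybridised as biotin-labelled product, per the labels' protocols. The values deposited by the authors are on the log2 scale, one for each probe set, and the submitters' processing notes name RMA and Partek; RMA corrects background, makes the array distributions alike and summarises probes, so a shift of all genes would not be seen. The sources used here name no version, filter or build.

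Of 34390 probe sets, 23521 are annotated to 1 gene, 1814 to several and 9055 to none. The first kind gave 22180 genes, each read from its set with the highest mean. Transgenic minus wild type was fitted on all genes with lmFit and eBayes of limma 3.58.1 (R 4.3.3), with Benjamini-Hochberg adjustment and a threshold of 0.05; SE are moderated and intervals cover 95%. The fit was tested on simulated data. Arrays have no read depth, and their number limits the precision.

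The members, lists and tests were chosen with earlier results of these data known. All members could be named; of the other lists, genes past the threshold, the 2 highest and 2 lowest by moderated statistic, and cell type markers; Gusb, Psap, Cybb and Ccpg1os were named after their values were seen. The labels do not say whether array numbers pair the groups, and the reported fit did not pair them. Same-numbered arrays' deviations correlated at -0.03 to 0.08. That lies inside the -0.10 to 0.13 of arrays with different numbers, so it cannot settle whether they are paired. Alternatives covered variance moderation, dim genes, scaling, probe sets, array weights (statmod 1.5.0), the replicate number as a block, thresholds and each array left out. Figures used matplotlib 3.10.9 (Python 3.11.15).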

Additional observations from a re-analysis of the deposited data

Results flagged for a closer look

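Each group of 4 arrays was searched for an array far from the other 3 (Dixon's criterion) over 96 groups; chance alone flags about 1 in 20. Transgenic array 4 was far below the others for Ulk2 (6.59 against 7.43 to 7.50), Atg13 (6.41 against 7.33 to 7.39), Atg3 (9.70 against 10.26 to 10.37) and Lamp1 (12.37 against 12.65 to 12.66). Transgenic array 2 was high for Pik3r4 (7.91 against 7.20 to 7.30) and transgenic array 3 for Atg4b (7.17 against 6.74 to 6.78). Wild-type array 2 was low for Atg3 (10.26 against 10.45 to 10.49) and Lamp2 (9.28 against 9.56 to 9.58). Wild-type array 4 was low for Atg14 (8.15 against 8.45 to 8.48) and high for the macrophage marker Csf1r (6.76 against 6.04 to 6.13). The probe set shared by Bnip3l and its pseudogene, which no comparison used, was higher on all transgenic arrays by 0.43 on the log2 scale.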

How the results depend on the processing

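With 4 pools per group the calls on single members were near the threshold. Of 39 members, 0 passed with a mean-variance trend in eBayes, with trend and robust moderation, without variance moderation, with each array centred on its median, or with the replicate number as a block. With genes under a mean of 6 left out, 4 passed and 1 rose; with array weights 1 rose. At an adjusted p below 0.1, 4 passed and 1 rose, and 747 genes passed in all; below 0.01, 0 members and 57 genes passed. All genes passing were 374 in the reported fit, 35 without moderation and 187 with the replicate block. Leaving out 1 array gave 106 to 379 genes and 0 to 2 members passing, 0 to 1 that rose and 0 to 1 that fell. The cause of these shifts was not tested. Of the 6 related genes past the threshold, Ccpg1 alone passed with the replicate block and Ctsa alone without moderation. Under 19 alternatives (17 for Wipi1 and Bnip3, too dim for the filters on low genes), 0 called values reversed, 12 members that did not pass changed sign in at least 1, and 34 of the 37 passed in 0.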
